A study of Mus musculus with 5 samples.

Results

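Amino acid transporter families were followed in ribosome-bound mRNA of soleus myocytes. The members were all genes whose single symbol began with Slc1a, Slc3a, Slc6a, Slc7a, Slc36a, Slc38a or Slc43a followed by a digit, except *Slc6a8*, which carries creatine. This rule used names only and found 61 genes, with 1 probe set each, of the 19505 genes with a single symbol on the array. Of these members, 60 encode transporters or the heavy chains that pair with them, and *Slc7a6os* matched by its symbol alone. The RNA came from the left soleus of 5 sedentary Myogenin-Cre x RiboTag-Rpl22fl/fl-HA mice, numbered 1, 3, 11, 14 and 16, with 1 mouse Clariom S array per mouse. In these mice the myogenin promoter drives Cre, so that RPL22, a protein of the large ribosomal subunit, bears the HA epitope in cells of the myogenic lineage, and mRNA on their ribosomes can be collected with an antibody to HA. All 5 mice formed a single group, with no untreated, exercised or input sample to set against it, and the labels give neither age nor sex.

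Cells take up amino acids through families of membrane carriers that differ in what they carry and what drives them. Sodium-coupled carriers of the Slc38 and Slc6 families concentrate amino acids in the cell, exchangers of the Slc7 family, most of them paired with a heavy chain of the Slc3 family, trade them one for another, and Slc43 carriers let branched-chain amino acids move down their gradient. In muscle these carriers supply glutamine, alanine, leucine and taurine, and members in the lysosome membrane take part in amino acid sensing by the kinase mTORC1.

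Signals were compared with a background read on the same array, since there was no control tissue. The cutoff was the 95th percentile of 1091 odorant receptor genes, and lay between 5.25 in mouse 16 and 5.32 in mouse 1 on the log2 scale. Distance from the cutoff was the log2 signal minus that array's cutoff, and a gene was called above background when the mean distance was above 0 at an adjusted p under 0.05 (limma, two-sided, adjusted over all 19505 genes by Benjamini-Hochberg). By the same rule 0.825% of the odorant receptor genes passed, a share that is low by construction because these genes set the cutoff. Of genes that did not set it, 1.56% of 321 for vomeronasal receptors passed. So did 6.74% of 89 *Krtap* and *Defb* genes, for keratin-associated proteins and beta-defensins. Probe sets differ in affinity, so distances order the probe sets and not the amounts of mRNA, and no level was compared between genes. The labelled cell type was seen in its markers, with 11 of 11 myofiber markers called, and *Rpl22* had a signal of 12.12 ± 0.53 (SD, n = 5). The Y-linked gene *Eif2s3y* had 10.42, 11.92 and 12.73 in mice 3, 11 and 14, and 3.54 and 3.53 in mice 1 and 16, while the methods state that mice were male unless noted otherwise. The sex of mice 1 and 16 is thus in doubt, and a sex difference cannot be told apart from other differences between these mice. Over mice 3, 11 and 14 alone, 23 members were called, without *Slc7a6* and *Slc6a19*, and 42.2% of all genes were called.

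Above background were 25 of the 61 members (41%), against 43.5% of all genes tested, so the share was near that of the array as a whole. Signals lay above the cutoff in every mouse for 22 members, and 42.5% of all genes did so. In no mouse did the signal of 26 of the 61 members pass it, and the same held for 8449 of all 19505 genes. The median signal was 5.14 over the members and 5.16 over all genes. Within the set the families differed in their counts. Called were 9 of 11 Slc38 genes, 3 of 3 Slc43 genes, 1 of 2 Slc3 genes, 6 of 16 Slc7 genes, 4 of 18 Slc6 genes, 1 of 4 Slc36 genes and 1 of 7 Slc1 genes. The genes of a family share sequence and are not replicates, so no test was made between families.

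**Figure D1:**
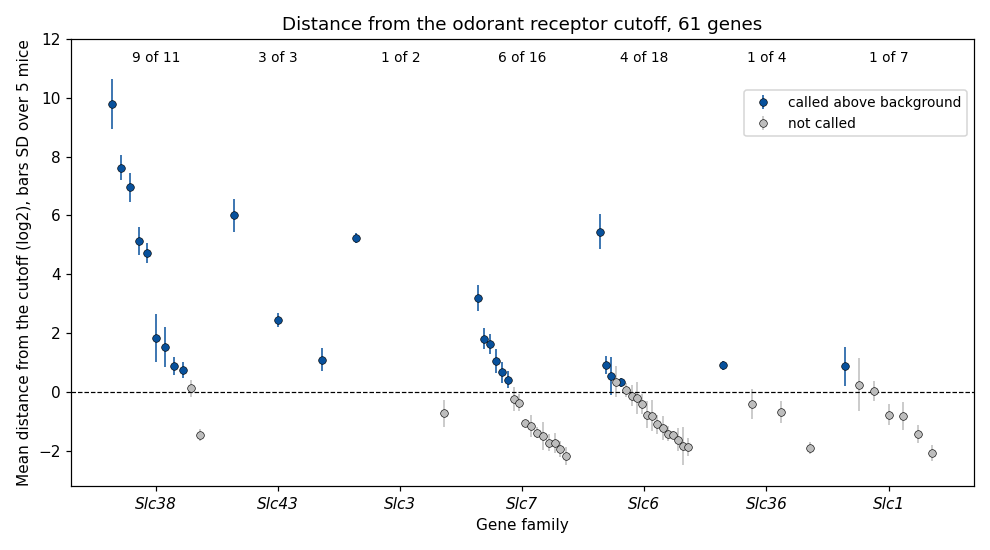
Mean distance from the odorant receptor cutoff (log2, y axis) of the 61 genes by family (x axis), with bars of 1 SD over 5 mice and the count of genes called above each family. Slc38 reached furthest above the dashed cutoff, at 9.79 for *Slc38a2*, while 14 of 18 Slc6 genes and 6 of 7 Slc1 genes were not called.

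The sodium-coupled neutral amino acid transporters of the Slc38 family made up 6 of the 12 members with the largest distances. Signals of the 5 mice are given throughout in the order 1, 3, 11, 14 and 16. *Slc38a2* encodes SNAT2, the system A carrier that cells raise when amino acids run short. It read 15.41, 15.94, 15.56, 14.52 and 13.89, with a mean of 15.06 ± 0.84 (SD, n = 5) and a distance of 9.79 ± 0.26 (SE, limma adjusted p = 5.5e-12). All 5 mice were far above the cutoff, and mice 14 and 16 lay below the other three, with 4.15-fold between mouse 16 and mouse 3. *Slc38a3*, for the glutamine and histidine carrier SNAT3 of system N, read 12.69, 13.33, 13.41, 12.44 and 12.63. Its distance was 7.63 ± 0.18 (SE, limma adjusted p = 1.8e-12), with mice 3 and 11 above the other three. *Slc38a4*, for the system A carrier SNAT4, known best from liver, read 9.64, 9.94, 10.56, 9.995 and 9.90. Mouse 11 was highest, and the distance was 4.73 ± 0.16 (SE, limma adjusted p = 5.15e-11). *Slc38a1*, for SNAT1, a system A carrier of glutamine and alanine, read 7.70, 7.34, 6.29, 6.12 and 6.54, a distance of 1.52 ± 0.22 (SE, limma adjusted p = 4.44e-05). Mice 1 and 3 stood above the others for *Slc38a1*, whereas for its neighbour *Slc38a2* mice 1, 3 and 11 did. *Slc38a1*, *Slc38a2* and *Slc38a4* lie next to each other on mouse chromosome 15 (gene order of GRCm38.p6), and all 3 were called.

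Members of the same family that work inside the cell were also above background. *Slc38a9*, the arginine sensor of mTORC1 in the lysosome membrane, read 10.69, 10.05, 11.13, 9.99 and 10.20. Every mouse was more than 4 log2 units above its cutoff, and the mean distance was 5.14 ± 0.18 (SE, limma adjusted p = 8.02e-11). *Slc38a10*, for an intracellular member, read 12.65, 12.40, 12.41, 11.40 and 12.27, with a distance of 6.95 ± 0.18 (SE, limma adjusted p = 5.14e-12). Mouse 14 alone was low for it, and the SD of 0.48 over 5 mice was 0.16 without that mouse. *Slc38a6*, a member known less well, read 7.77, 7.35, 7.62, 5.73 and 7.09. Mouse 14 again lay below the other four, at 4.11-fold below mouse 1, and the distance was 1.83 ± 0.25 (SE, limma adjusted p = 2.68e-05). The lysosomal glutamine and asparagine exporter *Slc38a7* had a mean signal of 6.16 ± 0.30 and the system N carrier *Slc38a5* one of 6.01 ± 0.27 (SD, n = 5 each), both called. *Slc38a11*, at 5.39 ± 0.28, was not told apart from the cutoff (distance 0.11 ± 0.15, SE, limma adjusted p = 0.488), and *Slc38a8*, known from retina and neurons, was below it in every mouse at 3.82 ± 0.20 (SD, n = 5 each).

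**Figure D2:**
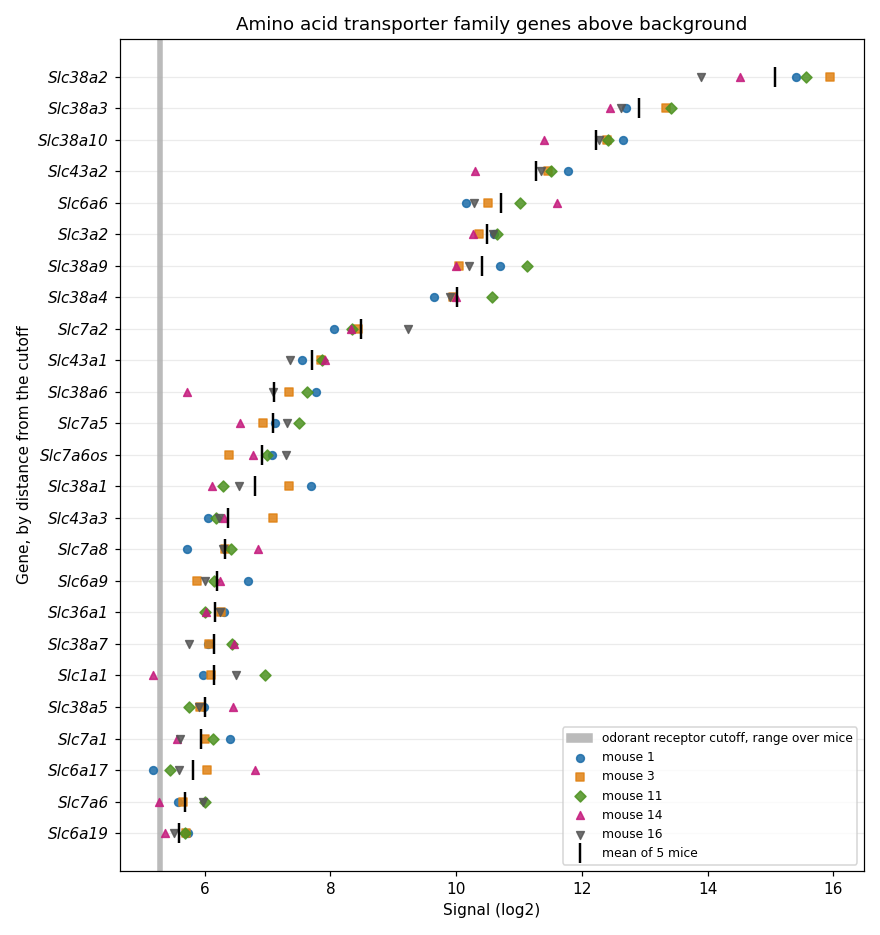
Log2 signal (x axis) of each mouse, with its mean over 5 mice, for the 25 genes called above background, from the largest distance at the top. The grey band spans the cutoffs of the 5 arrays, and the mouse 14 triangles stand apart to the left for *Slc38a10*, *Slc43a2* and *Slc38a6* and to the right for *Slc6a6*.

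Leucine and other large neutral amino acids pass through system L, which is formed by exchangers of the Slc7 family with a shared heavy chain and by the Slc43 facilitators. *Slc3a2*, for the heavy chain 4F2hc (CD98), read 10.60, 10.36, 10.65, 10.27 and 10.58. These 5 values lay within 1.3-fold of each other, and the distance was 5.22 ± 0.14 (SE, limma adjusted p = 5.03e-12). Its light chain LAT1, from *Slc7a5*, an exchanger of leucine and other large neutral amino acids, read 7.11, 6.93, 7.50, 6.57 and 7.32. Mouse 14 was lowest and the distance was 1.81 ± 0.16 (SE, limma adjusted p = 5.98e-07). *Slc7a8*, for LAT2, which also takes small neutral amino acids, read 5.71, 6.33, 6.42, 6.85 and 6.29. Here mouse 14 was highest and mouse 1 lowest, with a distance of 1.04 ± 0.17 (SE, limma adjusted p = 0.000114). *Slc7a6*, for y+LAT2, which trades cationic for neutral amino acids, was close to the cutoff at 5.69 ± 0.30 (SD, n = 5) and above it in 4 mice.

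Of the facilitators, *Slc43a2*, for LAT4, a carrier of branched-chain amino acids and phenylalanine, read 11.77, 11.45, 11.52, 10.30 and 11.35. Mice 1, 3, 11 and 16 lay close together and mouse 14 below them, and the distance was 6.0 ± 0.20 (SE, limma adjusted p = 4.62e-11). *Slc43a1*, for the branched-chain carrier LAT3, read 7.55, 7.85, 7.87, 7.91 and 7.36, a distance of 2.43 ± 0.14 (SE, limma adjusted p = 1.3e-08). Its 5 mice lay within 1.47-fold of each other. *Slc43a3* belongs to the family by sequence and encodes a carrier of purine nucleobases. It read 6.06, 7.08, 6.19, 6.31 and 6.23, with mouse 3 above the other four and a distance of 1.10 ± 0.17 (SE, limma adjusted p = 7.71e-05).

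Light chains that carry cystine, and the heavy chain of the kidney cystine carrier, were not above background. *Slc7a11*, for the cystine and glutamate exchanger xCT, read 3.89, 4.52, 4.45, 4.10 and 3.63. All 5 mice were below their cutoff, with a distance of -1.16 ± 0.16 (SE, limma adjusted p = 3.41e-05). *Slc3a1*, the heavy chain rBAT of the kidney cystine carrier, had a mean of 4.54 ± 0.45, and *Slc7a9*, its light chain, 3.34 ± 0.27 (SD, n = 5 each). The other Slc7 light chains that were not called were *Slc7a10* at 4.91 ± 0.29, *Slc7a15* at 4.23 ± 0.10, *Slc7a12* at 3.88 ± 0.19, *Slc7a13*, which also carries cystine, at 3.54 ± 0.29 and *Slc7a7* at 3.54 ± 0.34 (SD, n = 5 each), each below its cutoff in every mouse. A low signal can also come from a probe set of low affinity, and the affinity was not measured here.

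Arginine and lysine enter cells through the cationic amino acid transporters. *Slc7a2*, for CAT2, read 8.06, 8.44, 8.34, 8.32 and 9.23, a distance of 3.20 ± 0.18 (SE, limma adjusted p = 7.23e-09). Mouse 16 lay above the other four, and the SD of 0.44 was 0.16 without it. *Slc7a1*, for CAT1, read 6.40, 6.002, 6.14, 5.57 and 5.60, a distance of 0.66 ± 0.16 (SE, limma adjusted p = 0.00186). All 5 mice were above the cutoff, mice 14 and 16 by the least. *Slc7a4*, a member with no settled substrate, had 5.03 ± 0.40, *Slc7a14*, a lysosomal member of the nervous system, 3.77 ± 0.48, and *Slc7a3*, for CAT3, 3.10 ± 0.31 (SD, n = 5 each), and none was called.

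In the Slc6 family, whose members are known mostly from neurons, gut and kidney, the taurine transporter had the largest distance. *Slc6a6*, for TauT, which keeps the high taurine content of muscle, read 10.16, 10.51, 11.02, 11.60 and 10.29. Mouse 14 was highest, 2.71-fold above mouse 1, and the distance was 5.44 ± 0.20 (SE, limma adjusted p = 1.49e-10). *Slc6a9*, for the glycine transporter GlyT1, was called at 6.19 ± 0.31 (SD, n = 5), with a distance of 0.92 ± 0.15 (SE, limma adjusted p = 0.000108). *Slc6a17*, for a vesicular neutral amino acid carrier of neurons, read 5.18, 6.04, 5.45, 6.80 and 5.59. Mouse 1 was below its cutoff, mouse 14 was highest, and the distance was 0.54 ± 0.22 (SE, limma adjusted p = 0.0337). *Slc6a19*, for the neutral amino acid carrier B0AT1 of gut and kidney, read 5.73, 5.70, 5.68, 5.36 and 5.51. It was the called member nearest to the cutoff, at 0.32 ± 0.14 (SE, limma adjusted p = 0.0424). Markers of neurons were near background too, with 1 of 9 called (*Syp*) and a mean signal over the list between 4.10 in mouse 3 and 4.30 in mouse 1, and their part in the *Slc6a17* signal was not tested.

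Calls close to the cutoff were lost in some fits that left a mouse out. With all mice the distances were 0.54 for *Slc6a17*, 0.42 for *Slc7a6* and 0.32 for *Slc6a19*, in log2 units. *Slc6a17* was no longer called without mouse 3 (0.47), mouse 14 (0.29) or mouse 16 (0.59). *Slc7a6* was not called without mouse 3 (0.42), mouse 11 (0.34) or mouse 16 (0.34). *Slc6a19* was not called without mouse 1 (0.30), mouse 3 (0.29), mouse 11 (0.30) or mouse 16 (0.34). The distance did not fall for *Slc6a17* and *Slc6a19* without mouse 16 or for *Slc7a6* without mouse 3. These losses thus do not show that the call rested on the mouse left out. In the other fits named here the distance was lower than with all mice. With the 99th percentile as cutoff, or with the *Krtap* and *Defb* genes as background, 18 members were called, without these 3 and without *Slc38a7*, *Slc1a1*, *Slc38a5* and *Slc7a1*. Of all genes, 38.2% and 38.1% were called in these settings, against 43.5% in the main fit.

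The other 14 Slc6 genes were not called. The uncalled member with the largest distance was *Slc6a20a*, for the proline and glycine carrier SIT1, which read 5.51, 6.54, 5.38, 5.24 and 5.42. Mouse 3 lay well above its cutoff and the other four close to theirs, and the distance was 0.34 ± 0.19 (SE, limma adjusted p = 0.116). Its neighbour and near copy *Slc6a20b* had 5.34 ± 0.24 (SD, n = 5), and the probe sets of such close copies may share signal. Carriers of GABA, betaine or taurine followed at 5.14 ± 0.35 for *Slc6a13*, 5.08 ± 0.54 for *Slc6a11* and 3.41 ± 0.30 for *Slc6a12* (SD, n = 5 each). The monoamine transporters had means of 4.46 ± 0.52 for *Slc6a2* (noradrenaline), 4.17 ± 0.32 for *Slc6a4* (serotonin) and 3.81 ± 0.12 for *Slc6a3* (dopamine) (SD, n = 5 each). They were below the cutoff in every mouse. *Slc6a2* read 4.68, 4.72, 4.71, 4.67 and 3.53, and mouse 16 lay more than 1 log2 unit below the rest. *Slc6a5*, for the glycine transporter GlyT2 of neurons, read 3.63, 3.82, 4.28, 3.77 and 3.73, all below the cutoff. The remaining means were 4.86 for *Slc6a7*, 4.50 for *Slc6a18*, 4.06 for *Slc6a14*, 3.64 for *Slc6a21* and 3.43 for *Slc6a15*.

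Of the Slc1 family, which holds the glutamate transporters and the exchangers ASCT1 and ASCT2, a single gene was called. *Slc1a1*, for the glutamate and cysteine carrier EAAT3, read 5.97, 6.10, 6.95, 5.19 and 6.50. Mouse 14 was below its cutoff and the other four were above it, with a distance of 0.87 ± 0.22 (SE, limma adjusted p = 0.00293). *Slc1a5*, for the glutamine exchanger ASCT2, read 5.78, 5.66, 6.11, 3.96 and 6.10. Again mouse 14 alone was below its cutoff, and the gene was not called (0.25 ± 0.27, SE, limma adjusted p = 0.405). Without mouse 14 its distance was 0.64 ± 0.16 (SE, limma adjusted p = 0.00298), and *Slc1a5* was the member that a fit without this mouse added. *Slc1a7*, a glutamate transporter of the retina, was the uncalled member nearest to the cutoff and read 5.48, 4.86, 5.74, 5.11 and 5.34. Its mice lay on both sides of the cutoff (0.03 ± 0.16, SE, limma adjusted p = 0.87). The glial glutamate transporters *Slc1a3* and *Slc1a2* had 4.50 ± 0.36 and 4.45 ± 0.47, and *Slc1a4*, for ASCT1, 3.84 ± 0.31 (SD, n = 5 each). *Slc1a6*, the glutamate transporter of Purkinje cells, read 2.99, 3.66, 3.18, 3.14 and 3.01, all below the cutoff.

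Proton-coupled transporters of the Slc36 family move small amino acids out of lysosomes and across the plasma membrane. *Slc36a1*, for the lysosomal exporter PAT1, read 6.31, 6.26, 6.01, 6.03 and 6.25. All 5 mice were above the cutoff within 1.23-fold of each other, with a distance of 0.89 ± 0.13 (SE, limma adjusted p = 5.45e-05). Its neighbours on chromosome 11 were not called, at 4.60 ± 0.37 for *Slc36a2* and 3.36 ± 0.21 for *Slc36a3*, nor was *Slc36a4*, a proline and tryptophan carrier, at 4.87 ± 0.52 (SD, n = 5 each). *Slc7a6os*, which lies on the opposite strand beside *Slc7a6*, was called at 6.91 ± 0.34 (SD, n = 5), and whether its transcripts reach the *Slc7a6* probe set was not tested.

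Members varied between mice by about as much as other genes above background. The median SD was 0.406 over the 25 called members, with a range of 0.141 to 0.838, against 0.363 over all 8482 called genes, and 13 of the 25 lay above 0.363. At the narrow end, *Slc36a1* (0.14), *Slc6a19* (0.16) and *Slc3a2* (0.17) had SDs that 4.55%, 6.3% and 7.19% of called genes undercut. At the wide end were *Slc38a2* (0.84), *Slc38a6* (0.82), *Slc38a1* (0.69), *Slc1a1* (0.66) and *Slc6a17* (0.63), and 88.5% to 95.9% of called genes had lower SDs. Leaving out mouse 14 took the SD of *Slc38a6* to 0.30, of *Slc43a2* to 0.18, of *Slc6a6* to 0.38 and of *Slc6a17* to 0.36.

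**Figure D3:**
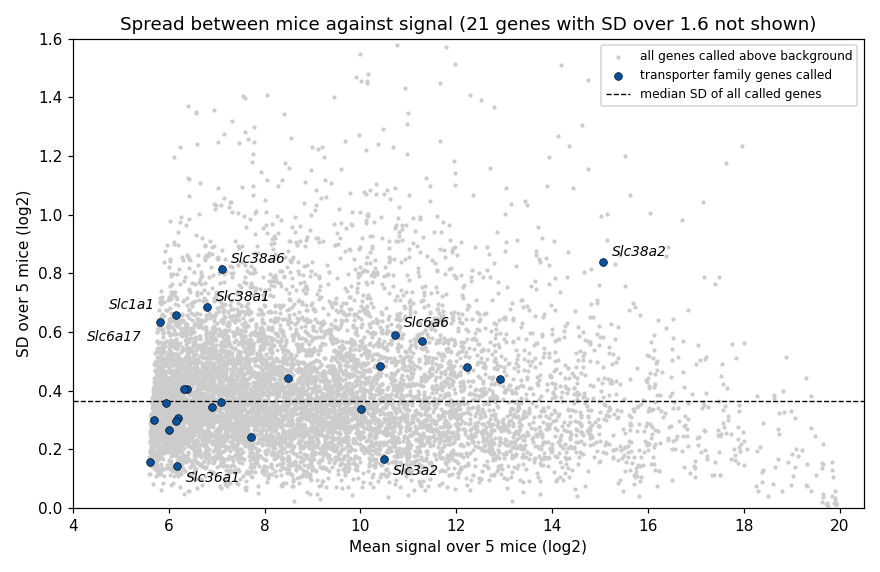
SD over 5 mice (log2, y axis) against mean log2 signal over 5 mice (x axis) for all genes called above background (grey) and the 25 transporter family genes among them (blue), with the median SD of all called genes as a dashed line. Of the labelled genes, *Slc38a2* and *Slc38a6* lie far above the line and *Slc3a2* and *Slc36a1* below it.

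In 8 of the 61 members 1 mouse stood apart from the other four by Dixon's ratio, a gap that 5.82% of all genes had.

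Mouse 14 was often the lowest. It had the lowest signal for 12 of the 25 called members (48%), and for 24.1% of all called genes. These 12 were *Slc38a3*, *Slc38a10*, *Slc43a2*, *Slc3a2*, *Slc38a9*, *Slc38a6*, *Slc7a5*, *Slc38a1*, *Slc1a1*, *Slc7a1*, *Slc7a6* and *Slc6a19*. The same mouse was highest for 6 members (24%), *Slc6a6*, *Slc43a1*, *Slc7a8*, *Slc38a7*, *Slc38a5* and *Slc6a17*, and for 26.7% of all called genes. The median deviation of mouse 14 from the 5-mouse mean was -0.22 over the called members and 0.02 over all called genes. The other mice were lowest for 6 members (mouse 1), 2 (mouse 3), 2 (mouse 11) and 3 (mouse 16). Members are measured on the same RNA and are not independent, the pattern was noticed after the values were seen, and it was given no test. In the marker lists, mouse 14 had the highest mean signal for endothelium and smooth muscle, close to the next mouse in both. Endothelium read 5.79 in mouse 14, 5.73 in mouse 1 and 5.43 in the lowest (mouse 16). Smooth muscle read 7.49 in mouse 14, 7.37 in mouse 3 and 6.83 in the lowest (mouse 16). Among the smooth muscle markers mouse 14 was highest for *Rgs5* and *Myh11*, but not for *Smtn*, *Acta2*, *Tagln* or *Cnn1*. For myofibers its mean was the lowest, at 18.42 against 18.44 in mouse 11 and 18.65 in the highest (mouse 3). However, *Acta1*, *Mb* and *Myh2* lay at the top of the table's range (19.93), and *Ckm* and *Myh1* were highest in mouse 14. The erythroid list of 2 genes was also lowest in mouse 14, at 5.74 against 6.19 in the highest (mouse 3). Mouse 14 was neither highest nor lowest in the other marker lists. The part of these markers in the pattern was not tested.

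Several system A, system L and exchanger genes are known targets of ATF4, a transcription factor whose mRNA is translated more when amino acids are scarce. Of 31 measured genes of the ATF4 amino acid response, 21 were called (67.7%, against 43.5% of all genes). *Atf4* itself read 15.05, 14.65, 15.22, 14.76 and 14.91, with mice 3 and 14 lowest. *Vldlr*, a lipoprotein receptor, had a mean of 13.41 ± 0.47 and *Sars*, the seryl-tRNA synthetase, 13.30 ± 0.28 (SD, n = 5 each), the largest distances on the list after *Atf4*. Mouse 14 was lowest for 13 of the 21 called genes, against 24.1% of all called genes. The mean signal over the list was 7.98 in mouse 14 and between 8.44 and 8.55 in the other four. Chosen after the values were seen, *Asns*, for asparagine synthetase, read 6.94, 7.49, 6.50, 6.16 and 7.49, and *Atf5*, a related factor, read 12.51, 11.38, 11.78, 10.68 and 12.99. In both, mouse 14 was lowest. *Chac1*, an enzyme that breaks down glutathione, went the other way, and read 9.05, 8.58, 8.79, 9.58 and 6.55, with mouse 14 highest.

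**Figure D4:**
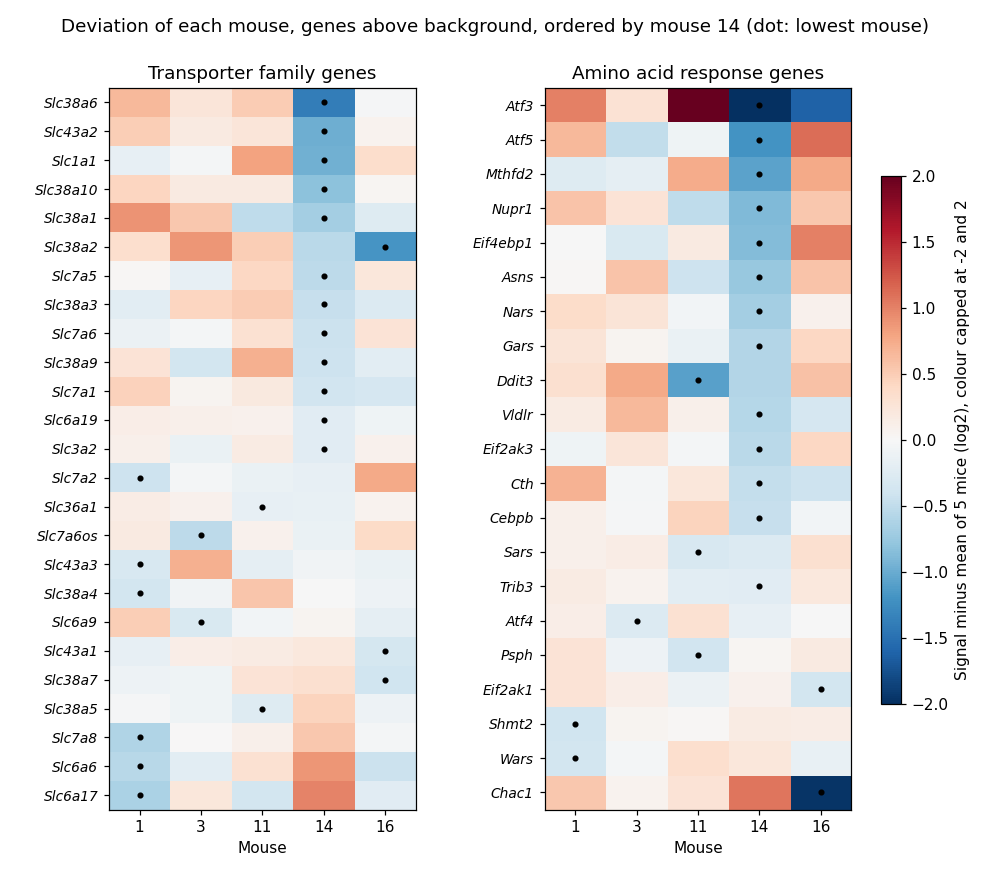
Deviation of each mouse (x axis) from the mean of 5 mice (log2, colour, capped at -2 and 2) for the 25 called transporter family genes on the left and the 21 called amino acid response genes on the right, ordered by mouse 14, with a dot on the lowest mouse of each gene. Dots fall in the mouse 14 column for 12 genes on the left and 13 on the right.

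The core of the amino acid response element, to which ATF4 and C/EBP proteins bind, was looked for in the promoters of the members. The letters searched were TGATGNAA on both strands, in RefSeq windows of 300 bases (250 before and 50 after each start, GRCm38.p6). A window was found for 45 of the 61 members. The core stood in 5 of 66 member windows (7.58%), against 3.97% of all 32851 windows. It occurred in 4 members (8.89%), *Slc7a11*, *Slc1a4*, *Slc7a7* and *Slc6a21*, against 4.51% of all genes with a window. None of these 4 was called above background, and the core was found in 0 of the 19 called members with a window. With the core in 4.51% of all genes, so few members cannot show a contrast with uncalled members. The share among all called genes was not computed. The called members *Slc38a3*, *Slc6a6*, *Slc7a2*, *Slc7a5*, *Slc38a1* and *Slc43a3* had no window. The 250 bases before the start are printed 5′ to 3′ on the gene's strand for *Slc7a11*, which holds 2 cores, in capitals, and for *Slc38a2*, the member with the largest distance, which holds none.
Slc7a11, chr3:50443614-50443863, minus strand: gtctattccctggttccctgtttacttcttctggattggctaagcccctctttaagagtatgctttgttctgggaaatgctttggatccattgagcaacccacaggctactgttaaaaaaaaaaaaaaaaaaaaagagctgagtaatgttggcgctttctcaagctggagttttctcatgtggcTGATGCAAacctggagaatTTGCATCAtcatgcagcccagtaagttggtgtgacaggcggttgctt
Slc38a2, chr15:96699729-96699978, minus strand: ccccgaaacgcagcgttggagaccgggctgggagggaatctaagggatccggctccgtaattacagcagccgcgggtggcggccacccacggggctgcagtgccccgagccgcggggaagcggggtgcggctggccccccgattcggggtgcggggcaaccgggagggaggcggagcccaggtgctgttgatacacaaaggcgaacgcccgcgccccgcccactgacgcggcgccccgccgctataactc
In *Slc7a11* the cores begin 66 and 47 bases before the start and face each other on opposite strands. The sites of the other 3 members are given with 11 bases on each side, again with the core in capitals. *Slc7a7* has more than 1 window and 2 separate cores.
Slc1a4, chr11:20332699-20332728, minus strand: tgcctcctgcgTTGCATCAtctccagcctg
Slc6a21, chr7:45282834-45282863, plus strand: agaggtgagaaTTACATCAagtgggcctcc
Slc7a7, chr14:54418067-54418096, minus strand: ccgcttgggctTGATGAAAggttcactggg
Slc7a7, chr14:54417927-54417956, minus strand: gacctagaagcTGATGCAAcagcttccccg
A match of these letters is a description of the sequence and does not show binding, and a window without them says nothing of elements elsewhere in the gene.

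Enzymes that use the carried amino acids were followed in a pair of lists. Of 10 measured enzymes of glutamine, glutamate and alanine metabolism, 8 were called (80%, against 43.5% of all genes). *Got2* and *Got1*, the mitochondrial and cytosolic aspartate aminotransferases, had signals of 18.28 ± 0.38 and 17.53 ± 0.45, and *Gpt*, the alanine aminotransferase, 9.45 ± 0.33 (SD, n = 5 each). *Gad1* and *Gad2*, which make GABA in neurons, were the members of this list that were not called. Of 9 measured genes of taurine and glutathione synthesis, 5 were called (55.6%, near the 43.5% of all genes), led by *Gsr*, the glutathione reductase, at 10.52 ± 0.48, and by *Gclm* at 9.37 ± 0.31 and *Gclc* at 7.57 ± 0.30, the subunits of glutamate-cysteine ligase (SD, n = 5 each). *Cdo1* and *Csad*, for enzymes that make taurine from cysteine, were not called. They had 4.63 ± 0.44 and 5.10 ± 0.13 (SD, n = 5 each). Their distances lay below the cutoff, at -0.65 ± 0.17 and -0.17 ± 0.13 (SE, limma adjusted p = 0.0041 and 0.23). For *Cdo1*, mouse 11 was above its cutoff, at 5.37. *Ado*, another gene of taurine synthesis on this list, went the other way and was called, at 7.40 ± 0.35 (SD, n = 5).

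The lysosomal machinery that senses amino acids for mTORC1 was called in 18 of 19 measured genes (94.7%, against 43.5% of all genes). *Rragd*, for a Rag GTPase, had a mean signal of 12.67 ± 0.36, *Lamtor5*, for a subunit of the complex that anchors the Rag GTPases, 12.65 ± 0.14, and *Fnip1*, for a partner of folliculin, 11.97 ± 1.14 (SD, n = 5 each). *Fnip1* had the widest spread of the 3, at 12.99, 13.35, 11.61, 11.07 and 10.82, with mice 1 and 3 above the others. The gene of this list that was not called was *Castor1*, for a cytosolic arginine sensor, at 4.45 ± 0.40, while *Slc38a9*, the lysosomal arginine sensor, was called as given above. *Sesn1* and *Sesn3* were called on this list. Their relative *Sesn2* was counted on the ATF4 list instead and was not called, at 3.54 ± 0.46 (SD, n = 5).

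Markers of cells other than myofibers were called in 21 of 55 genes (38.2%), near the 43.5% of all genes, but the lists differed. The fibroblast (83.3%) and smooth muscle (66.7%) lists were above the share of all genes, and the immune (0%) and neuron (11.1%) lists below it. The largest marker signals were 10.98 for *Fabp4* (adipocyte), 9.70 for *Rgs5* and 9.43 for *Smtn* (smooth muscle) and 9.34 for *Dcn* (fibroblast). Called were 5 of 10 endothelial, 5 of 6 fibroblast, 4 of 6 smooth muscle, 1 of 5 satellite cell, 2 of 4 Schwann cell, 2 of 5 adipocyte, 1 of 2 erythroid and 0 of 8 immune markers. Over the mice, the mean signal of the fibroblast list lay between 6.31 in mouse 11 and 7.47 in mouse 3, that of the immune list between 3.98 in mouse 11 and 4.31 in mouse 3, and that of the endothelial list between 5.43 in mouse 16 and 5.79 in mouse 14. *Slc7a1*, *Slc7a5*, *Slc38a5* and other members are also made by cells of vessels and connective tissue, and the part of such cells in the members' signals was not tested. In pooled RNA of a muscle, fewer cells of a type and less RNA per cell cannot be told apart.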

How the data were processed

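Left soleus RNA of 5 mice, collected by HA pulldown, was hybridized to 1 mouse Clariom S array per mouse. The deposited values are log2 signals, which the authors computed in Transcriptome Analysis Console 4.0 (named in the submitters' processing notes). The methods give its default configuration and an updated transcript annotation of the array. Neither the algorithm that summarized the probes nor a genome build is named in the sources read here. A single gene symbol was annotated for 19572 of 22206 probe sets, several for 0 and none for 2634. Probe sets of the 55 genes with several were averaged, which left 19505 genes. Array medians lay between 5.11 and 5.20, and the signals were not normalized again. Pairs of arrays had Pearson's r of 0.976 to 0.986 over probe sets, which are not independent.

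Each gene's log2 signal minus the 95th percentile of the odorant receptor genes on the same array was fitted as 1 sample (limma 3.58.1, eBayes, two-sided, run in R 4.3.3), with Benjamini-Hochberg adjustment over all 19505 genes. Tested on simulated data of 19505 genes, with 200 genes placed at each distance, the fit called 2 of them at a distance of 0, 155 at 0.5, 197 at 1 and 200 at 2. The number of arrays limits the precision. Each p-value tests whether the mean distance from the cutoff over 5 mice of 1 group is 0, with no condition compared.

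All members are accounted for. Signals of each mouse are given for the 12 called members with the largest distance, the 5 with the largest SD, those in which 1 mouse passed Dixon's critical ratio, the called and the uncalled member nearest to the cutoff, and 10 members chosen by name (*Slc3a2*, *Slc7a5*, *Slc7a8*, *Slc7a11*, *Slc7a1*, *Slc1a5*, *Slc38a2*, *Slc38a9*, *Slc36a1* and *Slc6a6*). The 3 called genes with the largest distance are named for each gene list. Members and lists were chosen with earlier results of these data known. Listed genes whose symbol matched no probe set were not analysed here, nor was identity between proteins. Promoters came from RefSeq (GRCm38.p6) and were matched by symbol.

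The fit was repeated with vomeronasal receptor genes or *Krtap* and *Defb* genes as background, with the 50th, 90th or 99th percentile as cutoff, with quantile normalization, with a trended, robust prior, after a filter on low genes, with the highest probe set per gene, by a rule with no model, for mice 3, 11 and 14 alone and with each mouse left out. Python 3.11.15 (pandas 2.3.3, numpy 2.4.6, scipy 1.17.1, matplotlib 3.10.9) made the tables and figures.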

Additional observations from a re-analysis of the deposited data

Results flagged for a closer look

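In 8 of the 61 members the highest or the lowest mouse stood apart from the other four, with a gap to its nearest neighbour, divided by the whole range, above Dixon's critical value of 0.71 for 5 samples. Chance gives such a gap in about 1 in 20 genes, or 3.05 of 61, and it was met by 5.82% of all genes on the array. Mouse 14 was the low one for *Slc1a5*, the glutamine exchanger, with a ratio of 0.790, and for *Slc43a2*, the branched-chain carrier LAT4, with 0.713. Mouse 3 was the high one for *Slc6a20a* (0.795), *Slc43a3* (0.753) and *Slc1a6* (0.721). Mouse 16 was low for *Slc6a2* (0.961), mouse 1 was high for *Slc7a12* (0.731), which read 4.21, 3.74, 3.87, 3.82 and 3.78 in mice 1, 3, 11, 14 and 16, and mouse 11 was high for *Slc6a5* (0.712). *Slc6a2*, *Slc7a12*, *Slc6a5* and *Slc1a6* were below the background cutoff in every mouse.

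Among 18 named genes of the pathway lists, 1 had a mouse apart. *Slc66a1*, for a lysosomal exporter of cationic amino acids, read 8.17, 8.21, 8.33, 7.68 and 8.18 in mice 1, 3, 11, 14 and 16, with mouse 14 low (ratio 0.757).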

How the results depend on the processing

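The count of 25 called members lay between 18 and 28 under every alternative except the 50th percentile as cutoff, which called 41 members and 9 genes of taurine and glutathione synthesis in place of 5. The share of all genes called moved as well, from 43.5% to 65.7% with the 50th percentile and 46.8% with the 90th. It was 38.2% with the 99th percentile and 38.1% against the *Krtap* and *Defb* genes. Leaving out each mouse in turn gave 22 to 25 called members. Of the 25, 18 were called under all 15 settings run. Against the *Krtap* and *Defb* genes, the distance turned negative for *Slc6a17* (-0.017), *Slc7a6* (-0.14) and *Slc6a19* (-0.23), and against the 99th percentile it did for *Slc6a17* (-0.0024), *Slc7a6* (-0.12) and *Slc6a19* (-0.22), since both cutoffs lie higher. *Slc38a7*, *Slc1a1*, *Slc38a5* and *Slc7a1* were not called under these cutoffs. The SD of 14 called members changed by more than 1.5 times when 1 particular mouse was left out. No paired analysis was possible because there is 1 group. Signals of dim probe sets lie near the cutoff, which limits calls there.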

Other observations

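Other carriers of amino acids and peptides were called in 4 of 12 measured genes, against 43.5% of all genes. Those called were *Slc66a1*, a lysosomal exporter of cationic amino acids, at 8.12 ± 0.25, *Ctns*, the lysosomal cystine exporter, at 7.94 ± 0.49, *Slc15a4*, a lysosomal histidine and peptide carrier, at 7.60 ± 0.67, and *Slc16a10*, a carrier of aromatic amino acids, at 7.02 ± 0.86 (SD, n = 5 each). *Slc16a10* read 6.24, 6.36, 7.76, 8.11 and 6.63 in mice 1, 3, 11, 14 and 16, with mice 11 and 14 above the others. The vesicular glutamate carriers *Slc17a7*, *Slc17a6* and *Slc17a8* and the peptide carriers *Slc15a1* and *Slc15a2* were not called.

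Of 6 measured partners and regulators of the transporters, 4 were called (66.7%, against 43.5% of all genes). *Nedd4*, a ubiquitin ligase that removes carriers from the plasma membrane, had a signal of 14.38 ± 0.21, its relative *Nedd4l* 8.12 ± 0.61, and the kinases *Sgk1* and *Sgk3*, which raise carriers at the membrane, 12.04 ± 0.61 and 8.07 ± 0.38 (SD, n = 5 each). *Nedd4l* was highest in mouse 14 at 9.14, against 7.49 to 8.06 in the other four. *Cltrn*, the partner that carries *Slc6a19* protein to the surface in kidney, was not called, at 3.98 ± 0.28 (SD, n = 5).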
